A study of Mus musculus with 12 samples.

Results

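Slc1a2, Slc1a3, Glul, Kcnj10, Aqp4, Gja1, Gjb6, Slc4a4, Aldh1l1 and Aldoc are 10 mouse genes for the glutamate, potassium, water, coupling and metabolic work of astrocytes. They were taken by name from 54356 annotated genes, and all 10 were among the 14607 genes with enough reads to be tested. They were followed through astrocyte cultures of C57BL/6 mice in 6 groups of 2 RNA-seq libraries. Cortical and midbrain astrocytes were each sequenced as mock cultures in growth medium, and after delivery of an shRNA that targets PTB, the product of Ptbp1 (shPTB), with 2 or 4 weeks in neuronal differentiation medium. No group had the hairpin without the medium or the medium without the hairpin, so what each did cannot be told apart. The series asks how expression switches from astrocyte to neuronal genes when PTB, a splicing repressor, is depleted. The labels do not say that the 2 libraries of a group came from separate cultures or animals, so every p-value measures only the spread between these libraries.

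Astrocytes clear glutamate from synapses through the sodium-coupled transporters GLT-1 (Slc1a2) and GLAST (Slc1a3), and glutamine synthetase (Glul) turns it into glutamine. The potassium channel Kir4.1 (Kcnj10) and the water channel aquaporin-4 (Aqp4) gather at endfeet on blood vessels, and the connexins Cx43 (Gja1) and Cx30 (Gjb6) join astrocytes into a coupled network. The sodium bicarbonate cotransporter NBCe1 (Slc4a4) controls pH, and the folate enzyme Aldh1l1 and the glycolytic enzyme aldolase C (Aldoc) are widely used to mark astrocytes.

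Libraries held 6022098 to 11385761 reads, and levels are given as CPM, the counts per 1000000 reads of a TMM-scaled library size. Ptbp1, the target, stood at 173 and 251 CPM in the cortex mock libraries and at 73.0 to 90.5 CPM in the 4 cortex shPTB libraries. In midbrain it stood at 208 and 249.98 CPM in mock, 105 and 90.8 at 2 weeks and 169 and 155 at 4 weeks, so all 8 shPTB libraries lay below the mock libraries of their region. Genes encoded by mitochondria took 16.9 to 22.7% of gene reads in mock and 36.4 to 48.3% in shPTB libraries. All 10 fixed astrocyte markers other than the members (Gfap, S100b, Sox9, Clu, Apoe and others) had reads in every group, summing to 29862 to 42458 CPM in mock and 31823 to 50484 CPM in shPTB libraries. Of the fixed markers of other cells, all 10 microglia genes had reads in mock and summed to 1260 to 1908 CPM there, against 25.04 to 109.5 CPM after shPTB, where Itgam was at 0 in midbrain at 4 weeks. The 9 fibroblast and pericyte markers summed to 826 to 2214 CPM in mock and 51.1 to 336 CPM after shPTB, with Col3a1 at 0 in cortex at 4 weeks. Sums for the 10 neuronal markers were 133 to 217 CPM in mock and 49.9 to 105 CPM after shPTB, with Elavl4 at 0 in 3 of the 4 shPTB groups and Nefl in 1. The 10 oligodendrocyte markers summed to 157 to 182 CPM in cortex mock and 417 to 466 CPM in cortex shPTB libraries, and to 230 to 290 CPM in all midbrain libraries, with Mog at 0 in both mock groups and in midbrain at 4 weeks. Sums were also lower after shPTB for 6 ependymal markers (146 to 205 CPM in mock and 12.5 to 55.0 CPM after shPTB) and 4 progenitor and cycling markers (210 to 281 and 7.30 to 29.6 CPM). The 6 endothelial markers summed to at most 23.4 CPM in any library, with Tek at 0 in all groups. These shifts moved with the same contrasts as the members, and their part in the members' values was not tested. In bulk RNA, fewer cells of a type and less of a transcript per cell cannot be told apart.

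The mock libraries stood apart from each other in a repeatable way. Mock library 2 was above library 1 in both regions for Glul (1.82-fold in cortex and 1.56-fold in midbrain), Kcnj10 (2.25-fold and 2.09-fold), Aqp4 (1.23-fold and 1.39-fold) and Aldoc (1.96-fold and 2.04-fold). Mock library 1 was above library 2 in both regions for Aldh1l1 (2.09-fold and 2.26-fold), Gja1 (1.71-fold and 1.32-fold), Slc4a4 (1.40-fold and 1.46-fold), Slc1a3 (1.12-fold and 1.16-fold) and Slc1a2 (1.07-fold and 1.13-fold). Leaving Gjb6 aside, the median ratio of the higher to the lower library over the members was 1.71 for cortex mock, 1.46 for midbrain mock and 1.03 to 1.06 in the 4 shPTB groups. Each member's result against mock is therefore also given without both mock libraries of a number wherever that changed its direction or its call. Such a fit takes the spread of the lone mock library from the remaining groups.

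Against mock, the 10 genes did not move as a block in read counts: some rose and others fell. In cortex at 2 weeks 3 rose and 3 fell of 10, where 35.0% of all tested genes passed the test of edgeR at an adjusted p of 0.05 (17.5% higher and 17.6% lower). In cortex at 4 weeks 3 rose and 5 fell of the 10, where 39.4% of all genes passed (18.5% higher and 20.9% lower). In midbrain at 2 weeks 3 rose and 1 fell, where 30.6% of all genes passed (15.9% higher and 14.7% lower). In midbrain at 4 weeks 3 rose and 4 fell, where 39.2% of all genes passed (18.7% higher and 20.4% lower). Glul and Gjb6 rose and Aldh1l1 fell in all 4 comparisons, Slc1a2 rose in cortex at both times, and Kcnj10 rose in midbrain at both times. Slc1a3 fell in 3 comparisons, Aqp4 and Gja1 fell at 4 weeks in both regions, Slc4a4 fell in cortex at both times, and Aldoc passed in none. The median log2 fold change of the 10 was -0.21 and -0.75 in cortex and -0.01 and -0.24 in midbrain at 2 and 4 weeks, beside -0.11, -0.12, -0.07 and -0.15 for all genes tested. The 2- and 4-week comparisons of a region share its 2 mock libraries. These directions depend on how libraries are scaled: with total reads in place of TMM the median over all genes was -0.85, -1.21, -0.74 and -1.01, and the members then counted 2 higher and 6 lower, 2 and 6, 2 and 5, and 2 and 6. Of all genes called, 49.8, 47.0, 51.8 and 47.8% were higher with TMM and 16.5, 9.31, 17.1 and 13.1% with total reads.

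**Figure D1:**
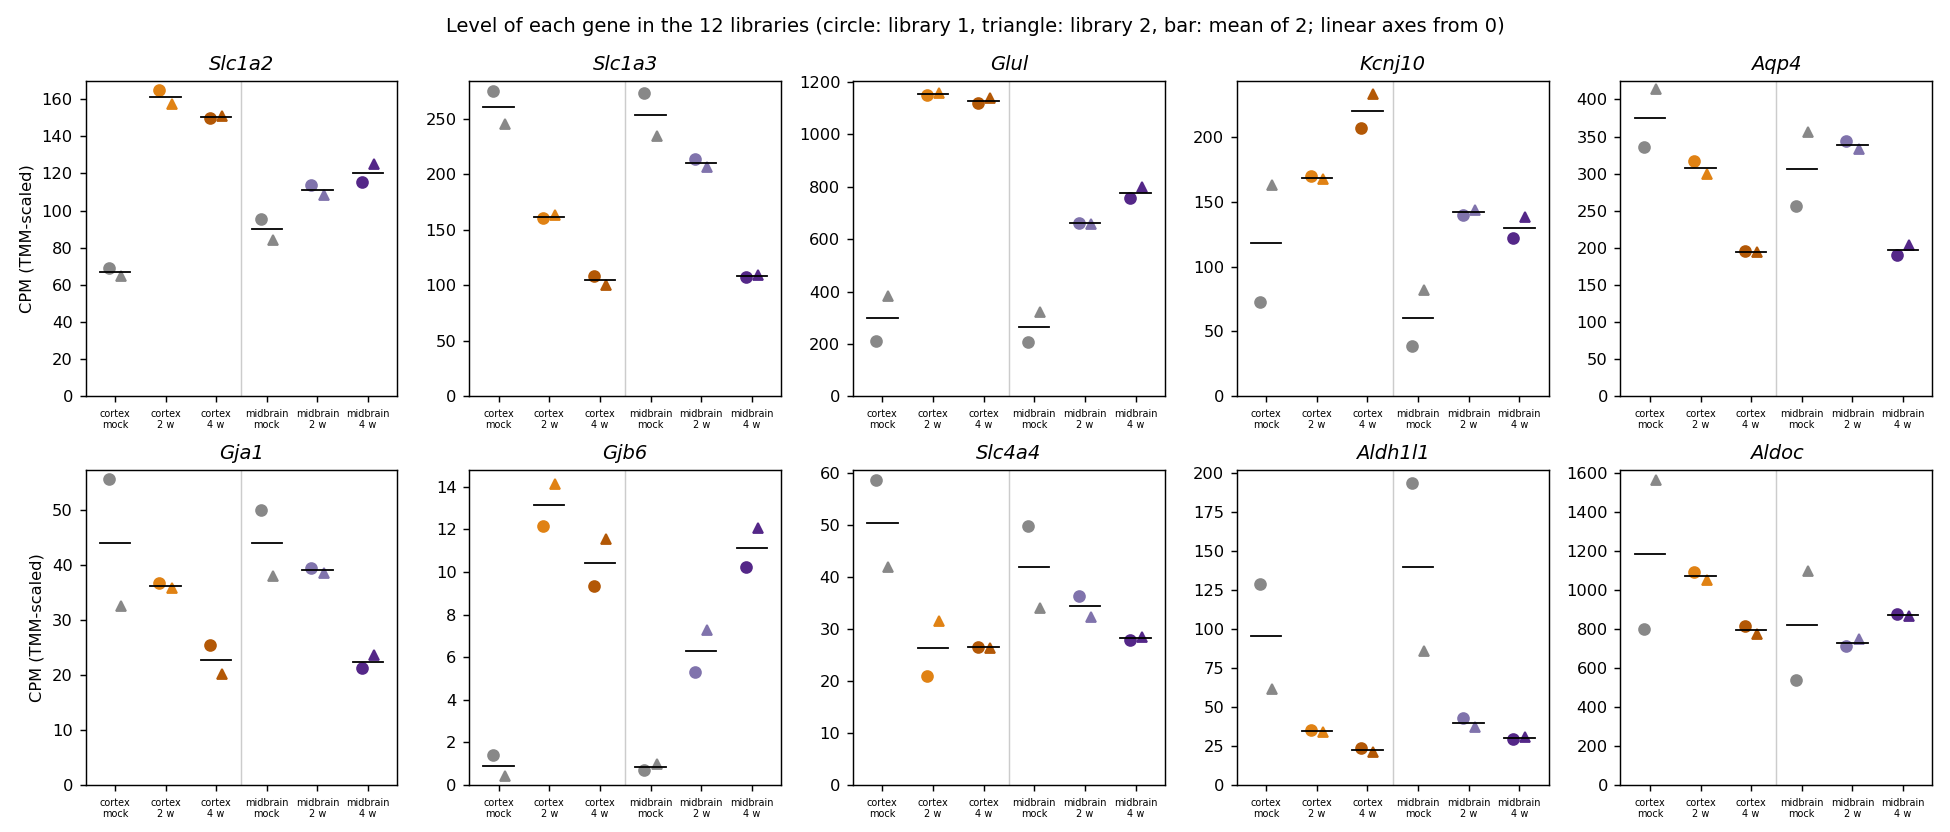
CPM (TMM-scaled, linear axes from 0) of the 10 genes in the 12 libraries, with circles for library 1, triangles for library 2 and bars for the mean of 2. Gjb6 lies between 0.398 and 1.39 CPM in the 4 mock libraries and between 5.32 and 14.1 CPM in the 8 shPTB libraries, so its mock and shPTB libraries do not overlap.

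Promoters of 4 members that moved one way in read counts in at least 3 of the comparisons are shown here. The upstream sequence of genes that rose (Glul and Gjb6) can so be set beside that of genes that fell (Slc1a3 and Aldh1l1). The rise of Glul holds for read counts and not for its TPM, as given below. Each runs from 250 bases before the RefSeq start to 50 bases after it on the gene's strand (RefSeq, GRCm38.p6), and 9 of the 10 members had an entry that was used. Capitals mark the 6 motifs searched on both strands: TATAAA (the TBP box), GGGCGG (GC box), TTGGCA (NFI site), ACAATG (SOX core), TTCNNNGAA (STAT site) and CACGTG (E-box). Of 32851 promoters of the same length, 13.6, 35.7, 14.1, 12.6, 8.30 and 7.15% held these motifs, in that order. No capitals overlap between motifs in the 4 sequences.
Glul (chr1:153899679-153899978, plus strand): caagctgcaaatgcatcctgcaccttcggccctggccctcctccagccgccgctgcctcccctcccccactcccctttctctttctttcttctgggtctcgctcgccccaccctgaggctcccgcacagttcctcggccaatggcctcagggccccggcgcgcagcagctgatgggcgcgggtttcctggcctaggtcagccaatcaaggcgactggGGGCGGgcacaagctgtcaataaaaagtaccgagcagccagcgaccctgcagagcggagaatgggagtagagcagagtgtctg
Gjb6 (chr14:57133562-57133861, minus strand): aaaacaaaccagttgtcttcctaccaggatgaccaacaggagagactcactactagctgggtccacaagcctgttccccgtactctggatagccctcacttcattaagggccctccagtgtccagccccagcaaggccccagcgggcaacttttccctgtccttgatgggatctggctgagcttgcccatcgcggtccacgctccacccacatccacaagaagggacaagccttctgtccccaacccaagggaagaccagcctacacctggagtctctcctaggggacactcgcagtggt
Slc1a3 (chr15:8710758-8711057, minus strand): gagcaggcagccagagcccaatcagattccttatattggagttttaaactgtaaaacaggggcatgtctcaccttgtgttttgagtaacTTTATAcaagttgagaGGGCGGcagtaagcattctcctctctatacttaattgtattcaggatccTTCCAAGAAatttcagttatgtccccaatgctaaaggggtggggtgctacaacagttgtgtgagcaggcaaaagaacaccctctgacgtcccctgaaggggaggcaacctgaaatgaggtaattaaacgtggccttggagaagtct
Aldh1l1 (chr6:90550543-90550842, plus strand): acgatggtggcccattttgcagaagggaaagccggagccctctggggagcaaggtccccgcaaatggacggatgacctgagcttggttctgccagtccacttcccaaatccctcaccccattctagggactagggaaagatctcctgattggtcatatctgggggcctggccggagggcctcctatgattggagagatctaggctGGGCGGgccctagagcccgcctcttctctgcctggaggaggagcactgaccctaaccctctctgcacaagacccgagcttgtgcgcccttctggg
Glul and Aldh1l1, which moved in opposite directions in read counts, each held 1 GC box, at positions -33 and -45 from the start. Slc1a3 held a TBP box on the reverse strand at -161, a GC box at -145 and a STAT site at -96, and the Gjb6 window held none of the 6 motifs. GC content ran from 45.3% for Slc1a3 to 64.3% for Glul, beside a median of 52.7% over all promoters. A match describes the letters only.

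Slc1a2 and Slc1a3, the 2 astrocyte glutamate transporters, moved in opposite directions in cortex. Slc1a2 (chr2:102658659-102790784, plus strand, GRCm38) stood at 69.3 and 64.9 CPM in cortex mock, 165 and 157 at 2 weeks and 150.0 and 151 at 4 weeks. All 4 shPTB libraries were above both mock libraries, and Slc1a2 rose at 2 weeks (1.26 ± 0.16, adjusted p = 0.00016; each such pair is a log2 fold change ± standard error) and at 4 weeks (1.16 ± 0.16, adjusted p = 0.000212). Midbrain values were 95.3 and 84.4 CPM in mock, 114 and 108 at 2 weeks and 115 and 125 at 4 weeks. The midbrain groups did not overlap either, but the differences of 0.31 ± 0.16, adjusted p = 0.161 and 0.42 ± 0.16, adjusted p = 0.0533 did not pass the test. Slc1a2 rose in midbrain at 4 weeks without 1 cortex mock library (adjusted p = 0.032 and 0.0321) and without both mock libraries of a number (0.51 and 0.34), and with both regions' mock 1 or mock 2 libraries left out it also rose at 2 weeks (0.39 and 0.22). Scaled to total reads, the Slc1a2 values were 0.51 (adjusted p = 0.0521) and 0.07 in cortex and -0.37 and -0.46 in midbrain, and none passed.

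Slc1a3 (chr15:8634124-8710764, minus strand) went down instead. It stood at 275 and 246 CPM in cortex mock, 161 and 163 at 2 weeks and 108 and 100.3 at 4 weeks, and fell at both times (-0.69 ± 0.16, adjusted p = 0.0082, and -1.32 ± 0.17, adjusted p = 0.000129). Midbrain levels were 273 and 234 CPM in mock, 214 and 206 at 2 weeks and 108 and 109 at 4 weeks. The 2-week midbrain libraries lay just below mock and did not pass (-0.27 ± 0.16, adjusted p = 0.227), while the 4-week libraries fell (-1.22 ± 0.17, adjusted p = 0.000242) to about the level of the 4-week cortex libraries. The comparison of 4 with 2 weeks uses no mock level, but its spread was estimated over all 6 groups, mock included. Slc1a3 was the only member to pass it, in midbrain (-0.95 ± 0.17, adjusted p = 0.017). That call ended without any 1 of its 4 libraries (adjusted p = 0.145 to 0.222), and the fall in cortex at 2 weeks ended without either 2-week library (adjusted p = 0.0662 and 0.0624). Without both mock 2 libraries Slc1a3 also fell in midbrain at 2 weeks (-0.38). Scaled to total reads, Slc1a3 fell in all 4 comparisons with mock (-1.44, -2.42, -0.95 and -2.10).

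The ratio of the 2 transporters within a library does not depend on library scaling. In estimated reads, Slc1a2 over Slc1a3 was 0.252 and 0.264 in cortex mock, 1.02 and 0.964 at 2 weeks and 1.38 and 1.51 at 4 weeks. In midbrain the ratio was 0.349 and 0.360 in mock, 0.532 and 0.525 at 2 weeks and 1.07 and 1.14 at 4 weeks. The replicates of a group lay close together, the groups of a region did not overlap, and the order was mock, 2 weeks, 4 weeks in both regions. The pair was chosen after its values were seen, so the ratio is a description with no test, and it shows unequal change rather than which of the genes changed. Nearly all reads of Slc1a2 were assigned to the protein-coding Slc1a2-202 (96.0 to 98.9% over the libraries), and those of Slc1a3 to Slc1a3-201 (92.3 to 97.8%). The share of the processed transcript Slc1a3-207 was 1.43 and 2.21% in cortex mock and 6.64 and 7.48% in cortex at 4 weeks, and 1.46 and 1.97% against 4.67 and 4.83% in midbrain.

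**Figure D2:**
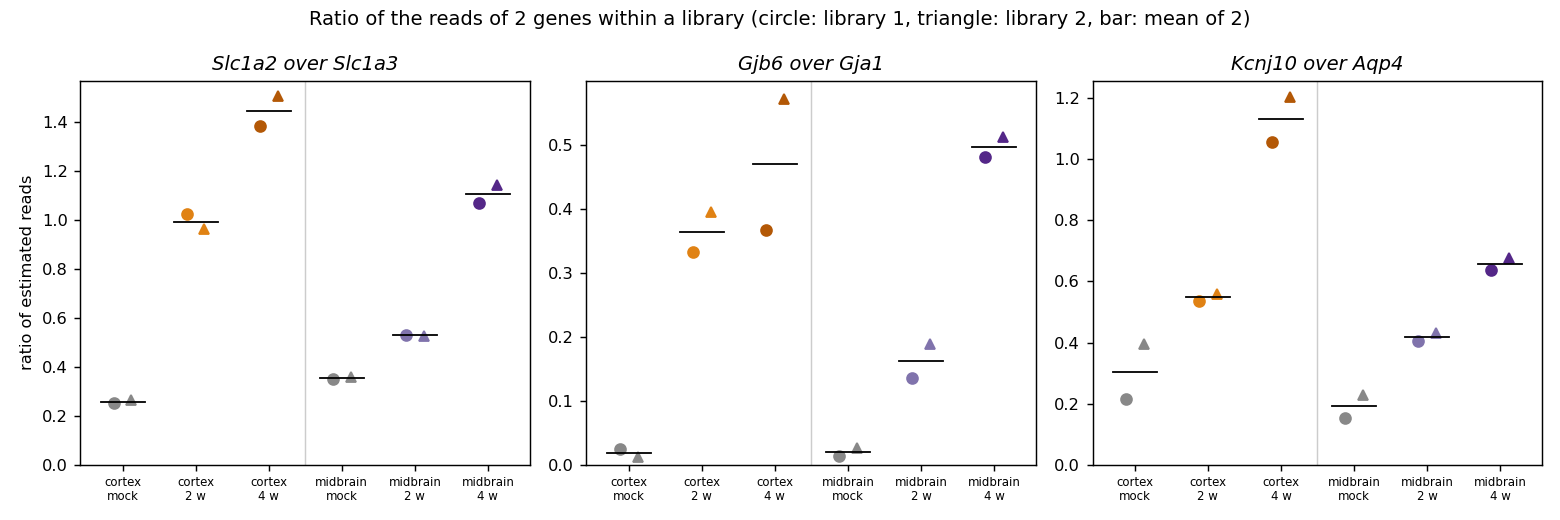
Ratio of the estimated reads of 2 members within each library (linear axes from 0), with circles for library 1, triangles for library 2 and bars for the mean of 2. Slc1a2 over Slc1a3 runs from 0.252 in a cortex mock library to 1.51 in a cortex 4-week library, and in all 3 panels the shPTB libraries lie above the mock libraries of their region.

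Glul (chr1:153899944-153909723, plus strand), which makes glutamine from glutamate and ammonia, rose in all 4 comparisons in read counts. It stood at 210.4 and 384 CPM in cortex mock, 1149 and 1157 at 2 weeks and 1121 and 1139 at 4 weeks (1.96 ± 0.29, adjusted p = 0.000483, and 1.93 ± 0.29, adjusted p = 0.000429). The midbrain libraries had 205 and 321 CPM in mock, 662 and 659.8 at 2 weeks and 756 and 798 at 4 weeks (1.33 ± 0.29, adjusted p = 0.00526, and 1.56 ± 0.29, adjusted p = 0.00165). Every shPTB library was above every mock library of its region, and no omission of a single library ended a Glul call. The rise passed with total-read scaling too (1.29, 0.91, 0.69 and 0.72).

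The deposited TPM divides reads by an effective length estimated per library and scales them to the whole library, without TMM factors. For Glul this TPM went the other way. It was 83.6 and 56.4 TPM in cortex mock, 52.4 and 48.8 at 2 weeks and 24.5 and 24.4 at 4 weeks, and in midbrain 82.6 and 68.7 TPM, then 34.3 and 34.5 and 27.8 and 28.1. The effective length behind it was 1953 and 3695 bases in cortex mock, 8526 and 8824 at 2 weeks and 12413 and 12517 at 4 weeks. In midbrain it was 1822 and 2895 bases in mock, 7788 and 7789 at 2 weeks and 9589 and 9983 at 4 weeks. All Glul reads lay on 1 transcript, Glul-201, in all 12 libraries, and the longest annotated Glul transcript has only 2792 bases. Effective lengths above the longest annotated transcript were not confined to Glul. Over the 12 libraries Slc1a2 ran from 13200 to 23420 bases (longest transcript 11595) and Kcnj10 from 6542 to 13106 bases (longest 5407). Aqp4 ran from 3265 to 7071 bases (longest 5054) and Gja1 from 2451 to 7183 bases (longest 3889). Aldh1l1 reached 4471 bases in cortex 2-week library 1 (longest 4175). The log2 ratio of the Glul effective length over mock was 1.69, 2.21, 1.76 and 2.09, above 96.0 to 97.1% of tested genes, whose medians were 0.49 to 0.62. With these lengths as an offset in the edgeR fit, Glul stood at 0.81 (adjusted p = 0.00635) and 0.42 (adjusted p = 0.0781) in cortex and 0.16 (adjusted p = 0.519) and 0.11 (adjusted p = 0.639) in midbrain. So 3 of its 4 calls ended, and its direction in read counts and in TPM differed. The offset fit kept TMM factors and its 4 Glul values stayed positive, while TPM carries no such factors. The part of library scaling in that difference was not tested. No other member lost a call against mock with this offset: Kcnj10, Gjb6, Aldh1l1, Aqp4, Gja1, Slc4a4, Slc1a3 and Slc1a2 passed wherever they had passed, and Slc4a4 (-1.27) and Slc1a2 (0.55) newly passed in midbrain at 4 weeks. In the 4-week against 2-week midbrain comparison the Slc1a3 fall did not pass with it (-0.75, adjusted p = 0.0676).

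**Figure D3:**
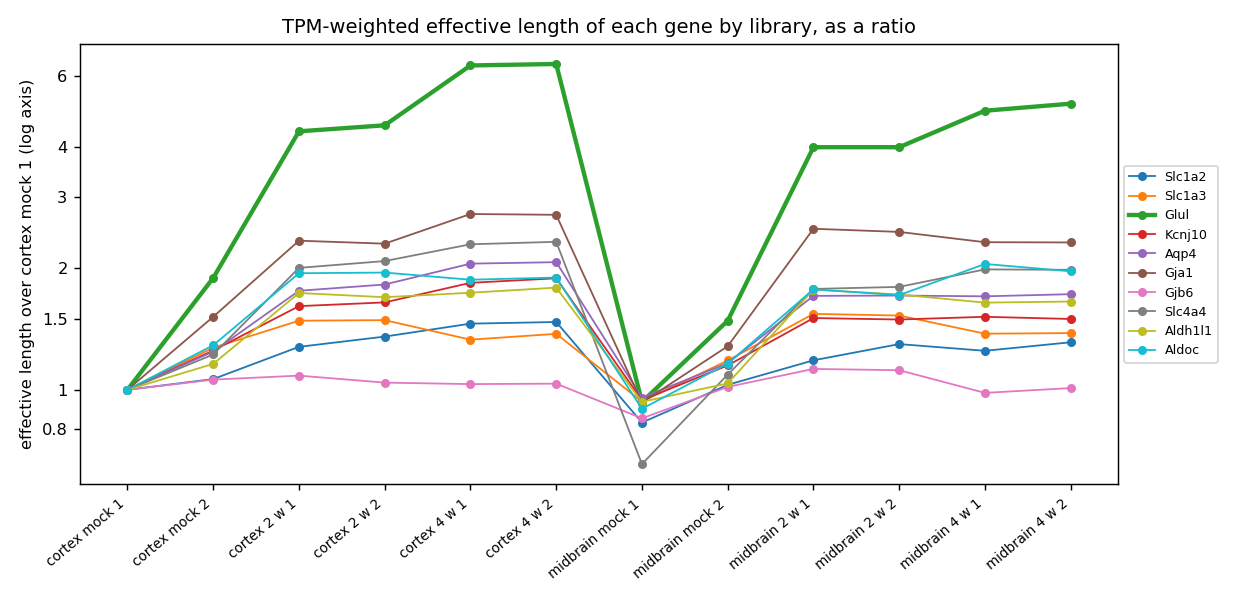
Effective length of each gene (TPM-weighted over its transcripts) in each library as a ratio to cortex mock library 1, on a log axis, where lines only join the points of a gene. The line of Glul rises from 1953 bases in that library to 12517 bases in a cortex 4-week library, while the line of Gjb6 stays close to its starting level.

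**Figure D4:**
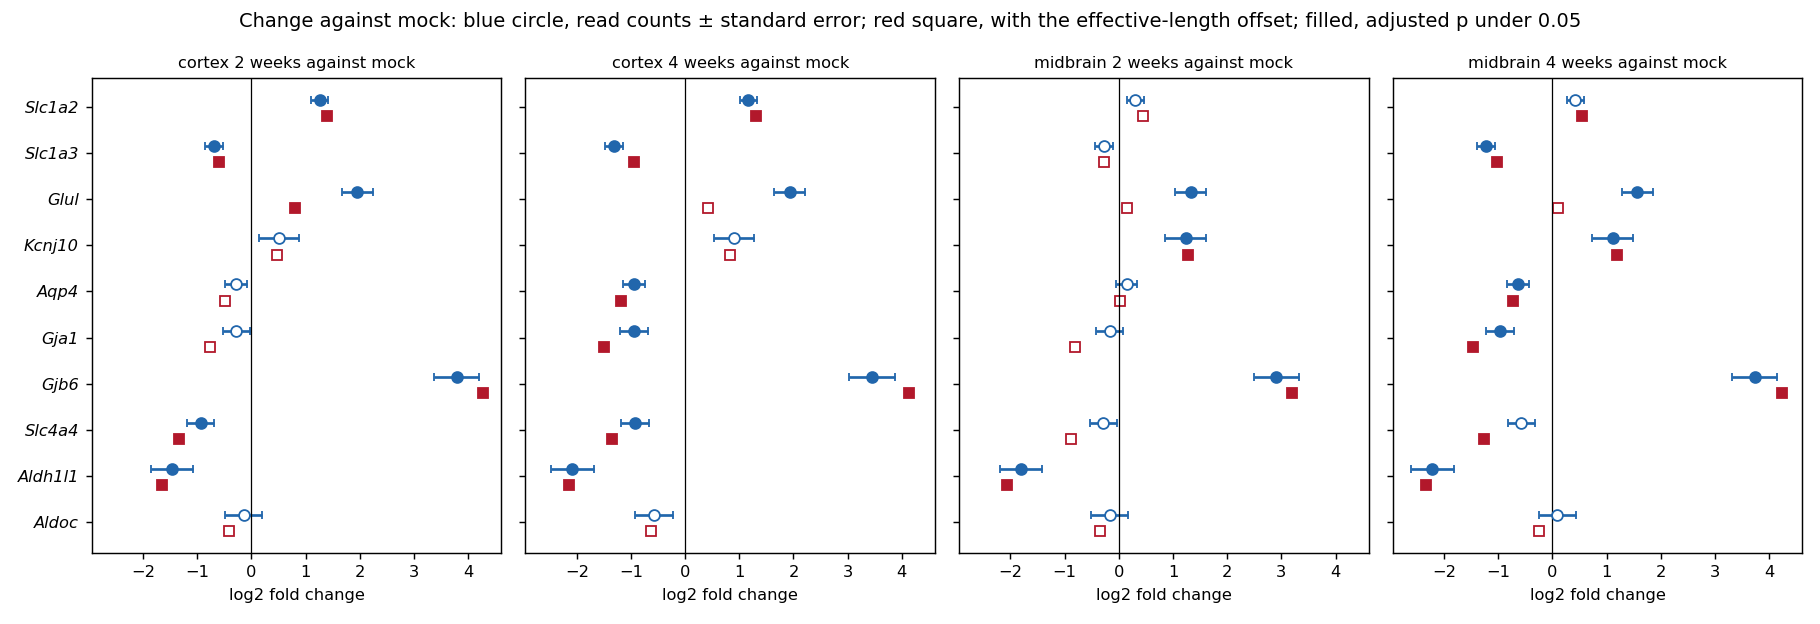
Log2 fold change against mock for the 10 genes in the 4 comparisons, as blue circles from read counts with the standard error and as red squares with the effective-length offset, filled where the adjusted p is under 0.05. Glul moves from 1.93 to 0.42 in cortex at 4 weeks, while the other members keep their side of 0, apart from Aldoc in midbrain at 4 weeks (0.09 and -0.26).

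Kcnj10 (chr1:172341210-172374085, plus strand), the inwardly rectifying channel through which astrocytes take up potassium, rose in midbrain. It stood at 39.0 and 81.6 CPM in midbrain mock, 139.7 and 144 at 2 weeks and 122 and 138 at 4 weeks (1.24 ± 0.37, adjusted p = 0.0282, and 1.11 ± 0.37, adjusted p = 0.0362). In cortex it stood at 72.5 and 163 CPM in mock, 169 and 167 at 2 weeks and 207 and 233 at 4 weeks. The 8 shPTB libraries all lay above the mock libraries of their region, but cortex mock library 2 lay just below the 2-week libraries, and the cortex differences did not pass (0.52 ± 0.37, adjusted p = 0.3, and 0.90 ± 0.37, adjusted p = 0.0752). Without cortex mock library 2 Kcnj10 rose in cortex by 1.21 (adjusted p = 0.0154) and 1.60 (adjusted p = 0.00325). The 4-week cortex rise also passed without either midbrain mock library (adjusted p = 0.0275 and 0.0286), and without both mock 1 libraries (0.42) or both mock 2 libraries (1.60). It passed too with a replicate block (0.97, adjusted p = 0.0234) and with no count filter (0.85, adjusted p = 0.00235). Without both mock 2 libraries Kcnj10 rose in cortex at 2 weeks as well (1.21). The midbrain rise at 2 weeks ended without midbrain mock library 1 (0.79, adjusted p = 0.153) and without either 2-week library (adjusted p = 0.103 and 0.108). At 4 weeks it ended without any 1 of 9 libraries: midbrain mock library 1 (0.66, adjusted p = 0.2) and each of the 8 shPTB libraries (adjusted p = 0.0552 to 0.154). With total-read scaling Kcnj10 passed nowhere (-0.13, -0.10, 0.61 and 0.28).

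Aqp4 (chr18:15389496-15410982, minus strand), the water channel of endfeet, was lower at 4 weeks. It stood at 336 and 414 CPM in cortex mock, 316 and 299 at 2 weeks and 196 and 194 at 4 weeks. Midbrain values were 256 and 356 CPM in mock, 344 and 333 at 2 weeks and 191 and 204 at 4 weeks. The 4-week libraries of both regions lay near each other and below every mock library, and Aqp4 fell there (-0.95 ± 0.20, adjusted p = 0.00337, and -0.63 ± 0.20, adjusted p = 0.027). At 2 weeks it did not pass in cortex (-0.29 ± 0.20, adjusted p = 0.286), and in midbrain its libraries fell between the 2 mock libraries (0.15 ± 0.20, adjusted p = 0.6). The midbrain fall at 4 weeks ended without any 1 of 9 libraries: midbrain mock library 2 (-0.38, adjusted p = 0.157) and each of the 8 shPTB libraries (adjusted p = 0.0503 to 0.161). Without both mock 1 libraries Aqp4 fell in cortex at 2 weeks (-0.44) and stood at -0.07 in midbrain. With total-read scaling it fell in cortex at 2 weeks (-1.001, adjusted p = 0.000235). Without both mock 2 libraries it rose in midbrain at 2 weeks (0.40), and with total-read scaling it fell there (-0.50, adjusted p = 0.0126). At least 99.7% of Aqp4 reads lay on Aqp4-201, and an antisense gene that overlaps Aqp4 held 570 reads over the 12 libraries. The ratio of Kcnj10 to Aqp4 reads was 0.216 and 0.394 in cortex mock, 0.535 and 0.560 at 2 weeks and 1.06 and 1.20 at 4 weeks. It was 0.152 and 0.229 in midbrain mock, 0.406 and 0.432 at 2 weeks and 0.638 and 0.677 at 4 weeks, so it too was ordered mock, 2 weeks, 4 weeks in both regions, as a description with no test.

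The 2 connexins moved in opposite directions at 4 weeks. Gja1 (chr10:56377330-56402513, plus strand), the main astrocyte connexin, stood at 55.6 and 32.5 CPM in cortex mock, 36.7 and 35.9 at 2 weeks and 25.5 and 20.2 at 4 weeks. In midbrain it stood at 49.96 and 37.9 CPM in mock, 39.5 and 38.6 at 2 weeks and 21.3 and 23.6 at 4 weeks. Its 2-week libraries lay between the mock libraries in both regions (-0.28 ± 0.25, adjusted p = 0.405, and -0.17 ± 0.25, adjusted p = 0.628), and its 4-week libraries lay below them and fell (-0.95 ± 0.26, adjusted p = 0.0127, and -0.97 ± 0.25, adjusted p = 0.0114). The 4-week fall of Gja1 ended in cortex without mock library 1 (-0.52, adjusted p = 0.0987) or 4-week library 2 (-0.80, adjusted p = 0.111). In midbrain it ended without mock library 1 (-0.77, adjusted p = 0.0599) or either 4-week library (-0.90, adjusted p = 0.0885, and -1.05, adjusted p = 0.0541). Gja1 fell in cortex at 2 weeks without cortex mock library 2 (-0.62, adjusted p = 0.0387). Without both mock 2 libraries Gja1 fell at 2 weeks in cortex (-0.62) and midbrain (-0.35), and without both mock 1 libraries it stood at 0.15 and 0.04 and did not pass. With total-read scaling Gja1 fell in cortex at 2 weeks (-1.08, adjusted p = 0.0255) and stood at -0.86 in midbrain at 2 weeks, which did not pass.

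Gjb6 (chr14:57123303-57133611, minus strand), the second astrocyte connexin, had the largest rise of the 10 in each of the 4 comparisons. It stood at 1.39 and 0.398 CPM in cortex mock, 12.2 and 14.1 at 2 weeks and 9.34 and 11.5 at 4 weeks (3.79 ± 0.42, adjusted p = 6.17e-05, and 3.45 ± 0.42, adjusted p = 9.67e-05). Its midbrain levels were 0.705 and 0.963 CPM in mock, 5.32 and 7.28 at 2 weeks and 10.2 and 12.1 at 4 weeks (2.91 ± 0.42, adjusted p = 0.000439, and 3.73 ± 0.42, adjusted p = 5.97e-05). No mock library reached the lowest shPTB library of its region, and no omission of a library, offset or scaling ended a Gjb6 call. The counts behind it are small: 24 and 5 reads in cortex mock, 13 and 15 in midbrain mock, and 47 to 90 in each shPTB library. The size of its rise in cortex depended on the mock library, and was 4.99 at 2 weeks and 4.65 at 4 weeks without mock library 1 of both regions and 3.23 and 2.89 without mock library 2. Gjb6 over Gja1 in reads was 0.0251 and 0.0122 for cortex mock, with 0.0141 and 0.0254 for the midbrain mock libraries. It was 0.332 and 0.394 and then 0.367 and 0.571 in cortex after shPTB, and 0.135 and 0.188 and then 0.480 and 0.511 in midbrain, a description with no test.

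Which connexin transcripts carried the reads needs care. For Gjb6, 65.0 to 100% of reads in a library were assigned to Gjb6-204 (chr14:57123304-57125221), annotated as a retained intron at the 3′ end of the gene, and the rest to the protein-coding Gjb6-201, which held no reads in 8 of the 12 libraries. Such a share between transcripts that overlap at the 3′ end is an estimate of the authors' quantification. For Gja1, Gja1-201 held 85.2 to 93.7% of reads in 9 libraries and none in the other three, where Gja1-206, which ends at the same base, held 75.1 to 92.7%. Those were 1 of the 2 cortex 4-week libraries and both midbrain 2-week libraries, so the assignment switched within a group and no change of transcript can be read from it. The 2 Gja1 transcripts are both annotated as protein-coding.

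Slc4a4 (chr5:88886818-89239653, plus strand), the sodium bicarbonate cotransporter, fell in cortex. It stood at 58.7 and 41.8 CPM in cortex mock, 20.97 and 31.5 at 2 weeks and 26.6 and 26.3 at 4 weeks (-0.94 ± 0.25, adjusted p = 0.0149, and -0.93 ± 0.25, adjusted p = 0.014). Midbrain levels ran at 49.7 and 34.0 CPM in mock, 36.3 and 32.3 at 2 weeks and 27.9 and 28.4 at 4 weeks. In cortex neither shPTB group overlapped with mock, the midbrain 2-week libraries did overlap with mock, and neither midbrain difference passed (-0.29 ± 0.25, adjusted p = 0.403, and -0.57 ± 0.25, adjusted p = 0.0912). The cortex falls of Slc4a4 ended without cortex mock library 1 (-0.68, adjusted p = 0.0786, and -0.67, adjusted p = 0.0761). The fall at 2 weeks also ended without 2-week library 1 (-0.68, adjusted p = 0.138), and that at 4 weeks without either 4-week library (adjusted p = 0.0781 and 0.0805). In midbrain at 4 weeks Slc4a4 fell without midbrain mock library 2 (-0.82, adjusted p = 0.0257), and without both mock 2 libraries it fell in midbrain at both times (-0.53 and -0.82). Without both mock 1 libraries it stood at 0.01 and -0.27 there, and with no count filter it fell in midbrain at 4 weeks (-0.65, adjusted p = 0.0398). With total-read scaling it fell in all 4 comparisons (-1.72, -2.06, -0.98 and -1.47).

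Aldh1l1 (chr6:90486427-90600203, plus strand), which oxidises formyl-tetrahydrofolate, had the largest fall of the 10 in all 4 comparisons. It stood at 129 and 61.7 CPM in cortex mock, 35.4 and 33.6 at 2 weeks and 23.8 and 21.1 at 4 weeks (-1.47 ± 0.38, adjusted p = 0.0125, and -2.09 ± 0.40, adjusted p = 0.00177). The midbrain libraries had 193 and 85.5 CPM in mock, 42.7 and 37.2 at 2 weeks and 29.6 and 30.4 at 4 weeks (-1.80 ± 0.38, adjusted p = 0.00472, and -2.22 ± 0.39, adjusted p = 0.00121). All 8 shPTB libraries lay between 21.1 and 42.7 CPM, below even the lower mock library of each region. The fall at 2 weeks ended in cortex without mock library 1 (-0.85, adjusted p = 0.0912) or either 2-week library (adjusted p = 0.0703 and 0.0848), and in midbrain without 2-week library 2 (-1.71, adjusted p = 0.0516). The size of the fall rested on mock library 1: without it in both regions Aldh1l1 stood at -0.85, -1.46, -1.10 and -1.51, and without mock library 2 at -1.91, -2.52, -2.27 and -2.68. Reads were divided between the protein-coding Aldh1l1-201 (43.5 to 100%) and Aldh1l1-207, annotated for nonsense-mediated decay (0 to 55.7%), with replicates of cortex at 2 weeks at 0 and 24.8% for the latter.

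Aldoc (chr11:78322968-78327781, plus strand), the brain form of aldolase, passed the test in no comparison. It stood at 799.6 and 1567 CPM in cortex mock, 1093 and 1051 at 2 weeks and 815 and 776 at 4 weeks. In midbrain it stood at 539.8 and 1099 CPM in mock, 715 and 748 at 2 weeks and 879 and 865 at 4 weeks. Each shPTB group overlapped with the wide range of the mock libraries, and the differences were -0.14 ± 0.34, adjusted p = 0.773, and -0.57 ± 0.34, adjusted p = 0.21 in cortex, and -0.16 ± 0.34, adjusted p = 0.743, and 0.09 ± 0.34, adjusted p = 0.854 in midbrain. With no count filter Aldoc fell in cortex at 4 weeks (-0.62, adjusted p = 0.0452), as it did without cortex mock library 1 (-0.99, adjusted p = 0.0262). The direction of Aldoc depended on which mock libraries were used. Without both mock 1 libraries it fell in all 4 comparisons (-0.56, -0.99, -0.59 and -0.33), and without both mock 2 libraries it rose in 3 (0.42, 0.44 and 0.69) and stood at -0.01 in cortex at 4 weeks. Total-read scaling gave a fall in all 4 (-0.80, -1.59, -0.79 and -0.74). The processed transcript Aldoc-206 held 14.2 to 15.8% of Aldoc reads in the 4 mock libraries and 9.74 and 12.4% in midbrain at 2 weeks, and it was listed at 0 in the other 6 libraries. The protein-coding Aldoc-202 held 83.6 to 84.8% in mock and 98.8 to 99.4% in those 6.

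Between 4 and 2 weeks of shPTB, none of the 10 passed in cortex, where 2.77% of all genes did, and 3 had an unadjusted p under 0.05 by edgeR and 1 passed with DESeq2. In midbrain 1 of 10 passed (2.66% of all genes, and 1.70% lower), the fall of Slc1a3 given above. The mock libraries entered the estimate of spread in both regions. Aqp4 stood at -0.66 ± 0.20, adjusted p = 0.127 in cortex and -0.78 ± 0.20, adjusted p = 0.0653 in midbrain, and Gja1 at -0.67 ± 0.26, adjusted p = 0.247 and -0.80 ± 0.25, adjusted p = 0.129, so neither passed. Between regions none of the 10 passed in mock, at 2 weeks or at 4 weeks by edgeR, where 2.19, 2.94 and 7.99% of all genes did. The counts at an unadjusted p under 0.05 were 2, 4 and 0, and DESeq2 called 0, 1 and 0. With a block on the numbers of the mock libraries, which was added after seeing the data, 5, 6 and 4 members passed, and in mock these were Slc1a2 (0.42) and Aldh1l1 (0.53), higher in midbrain, and Kcnj10 (-0.95), Aqp4 (-0.30) and Aldoc (-0.54), lower there. Values for Slc1a2 were 0.42 ± 0.16, adjusted p = 0.339 in mock, -0.54 ± 0.16, adjusted p = 0.108 at 2 weeks and -0.32 ± 0.16, adjusted p = 0.287 at 4 weeks, midbrain over cortex. The regions' responses to shPTB differed for none of the 10 at 2 weeks (0.685% of all genes) or 4 weeks (2.55%), with 1 at an unadjusted p under 0.05 and 1 by DESeq2 each time. Slc1a2 came nearest, with a midbrain minus cortex response of -0.96 ± 0.22, adjusted p = 0.106 at 2 weeks and -0.74 ± 0.22, adjusted p = 0.13 at 4 weeks. A rise of Slc1a2 that passed in cortex and not in midbrain is thus not shown to differ between them, and the same holds for Kcnj10 (0.72 ± 0.52, adjusted p = 0.772, and 0.21 ± 0.52, adjusted p = 0.955) and Slc4a4 (0.65 ± 0.35, adjusted p = 0.631, and 0.35 ± 0.36, adjusted p = 0.804).

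Levels of different genes were compared per length. By deposited TPM, Aldoc was the highest of the 10 in all 12 libraries, from 130 to 785 TPM. Glul held the second or the third place (24.4 to 83.6 TPM), Slc1a3 the second to the fourth (8.49 to 92.9 TPM) and Aqp4 the third to the fifth (7.35 to 76.3 TPM). Gjb6 ran from 0.154 to 3.80 TPM and held the last place in all mock and midbrain 2-week libraries and the sixth in the other shPTB libraries. By CPM per kilobase of the longest transcript, Aldoc (194 to 562) was first in 8 of 12 libraries, and Glul (73.5 to 414) was first in the 4 cortex shPTB libraries. CPM per kilobase assumes that reads spread evenly over a transcript, which was not tested here. TPM divides instead by the deposited effective lengths. In some or all libraries these went above the longest annotated transcript for at least Glul, Slc1a2, Kcnj10, Aqp4, Gja1 and Aldh1l1. Each order therefore holds only on its own scale.

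The genes around these 10 were read from 6 lists of 79 genes: glutamate and GABA handling, ion handling, endfoot anchoring, gap junctions, bicarbonate and lactate handling, and folate and aldolase genes. Of the 16 tested of 18 glutamate and GABA genes, 4 rose and 1 fell in cortex at 2 weeks, 6 and 4 at 4 weeks, and in midbrain 4 and 2, then 5 and 5. Their medians were 0.17, 0.13, 0.18 and -0.13, beside the medians of all genes given above. Slc1a1, the neuronal-type glutamate transporter EAAC1, rose in all 4, from 0.537 ± 0.309 to 6.96 ± 0.211 CPM in cortex at 2 weeks (3.61 ± 0.40, adjusted p = 6.75e-05) and likewise from 0.173 ± 0.0626 to 4.81 ± 0.876 CPM in midbrain at 2 weeks (4.68 ± 0.46, adjusted p = 3.21e-05), with 17 reads in cortex mock and 6 in midbrain mock. Slc7a11, the cystine-glutamate exchanger, rose from 0.601 ± 0.275 to 60.6 ± 4.52 CPM in cortex at 2 weeks (6.68 ± 0.28, adjusted p = 1.76e-07) and from 4.09 ± 0.429 to 21.4 ± 2.23 CPM in midbrain (2.38 ± 0.22, adjusted p = 1.97e-05). The aspartate aminotransferase Got2 rose at 4 weeks (cortex 1.63 ± 0.20, adjusted p = 0.000115, midbrain 1.58 ± 0.20, adjusted p = 0.000165), the glycine transporter Slc6a9 rose in cortex at 2 weeks (1.47 ± 0.20, adjusted p = 0.000298), and glutamate dehydrogenase Glud1 fell in midbrain at 2 weeks (-1.51 ± 0.33, adjusted p = 0.00593). With total-read scaling the list counted 4 higher and 6 lower, 3 and 8, 3 and 7, and 3 and 7.

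Of 14 ion-handling genes, all tested, 3 rose and 5 fell in cortex at both times, and 4 rose and 4 fell, then 4 and 5, in midbrain. Medians were -0.18, -0.25, -0.04 and 0.13. The TWIK potassium channel Kcnk1 rose from 82.3 ± 11.4 to 966 ± 7.90 CPM in cortex at 4 weeks (3.55 ± 0.21, adjusted p = 6.85e-07) and from 63.8 ± 9.66 to 941 ± 28.1 CPM in midbrain at 4 weeks (3.88 ± 0.21, adjusted p = 4.17e-07). The sodium pump regulator Fxyd1 fell at 2 weeks in both regions (cortex -2.93 ± 0.18, adjusted p = 1.57e-06, midbrain -2.33 ± 0.18, adjusted p = 5.79e-06). It fell in midbrain at 4 weeks too (-1.96 ± 0.18, adjusted p = 1.37e-05), and averaged 48.4 CPM in cortex at 4 weeks, beside 375 CPM in cortex mock. Kcnj16, the channel subunit that pairs with Kcnj10, fell in midbrain at 4 weeks (-1.04 ± 0.36, adjusted p = 0.039) and did not pass in the other 3 (-0.53 ± 0.36, adjusted p = 0.286, -0.75 ± 0.37, adjusted p = 0.134, and -0.72 ± 0.35, adjusted p = 0.135). With total-read scaling the list counted 2 higher and 8 lower, 1 and 10, 2 and 6, and 3 and 7.

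Endfoot and dystrophin-complex genes had medians of -1.29, -0.92, -0.78 and -0.62, the lowest of the 6 lists at 2 weeks in both regions. Of the 11 tested of 13, 1 rose and 7 fell in cortex at both times, and 2 rose and 6 fell in midbrain at both times. The heparan sulfate proteoglycan agrin (Agrn) fell from 63.6 ± 8.71 to 9.08 ± 0.885 CPM in cortex (-2.81 ± 0.25, adjusted p = 1.03e-05) and from 72.6 ± 18.3 to 14.7 ± 1.67 CPM in midbrain at 4 weeks (-2.30 ± 0.23, adjusted p = 3.28e-05). Utrophin (Utrn) fell in all 4, as in midbrain (-1.85 ± 0.38, adjusted p = 0.00401, and -1.41 ± 0.37, adjusted p = 0.0124). Aqp1, a water channel of the choroid plexus, fell from 19.8 ± 1.61 to 1.75 ± 0.176 CPM in cortex at 2 weeks (-3.50 ± 0.31, adjusted p = 1.45e-05) and rose in midbrain at 2 weeks (0.90 ± 0.26, adjusted p = 0.0213), a rise that did not pass with total-read scaling (0.24). Of the Aqp4 partners at endfeet, Mlc1 fell at 2 weeks (-1.43 ± 0.19, adjusted p = 0.000258 in cortex and -0.80 ± 0.19, adjusted p = 0.00926 in midbrain) and did not pass at 4 weeks (-0.44 ± 0.19, adjusted p = 0.0885, and -0.10 ± 0.19, adjusted p = 0.705). Hepacam fell in 3 comparisons (-0.92 ± 0.17, adjusted p = 0.00143, -0.78 ± 0.17, adjusted p = 0.00522, and -0.68 ± 0.17, adjusted p = 0.00854) and did not pass in cortex at 2 weeks (-0.42 ± 0.17, adjusted p = 0.0738). With total-read scaling 0 or 1 of the list was higher and 7 to 9 were lower.

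Of 11 gap-junction genes 7 were tested, and 3 rose and 2 fell, 3 and 1, 2 and 2, and 2 and 2, with medians of 0.67, 0.48, 0.29 and 0.08. Gjb2, the connexin Cx26, rose in all 4, as Gjb6 did, from 0.876 ± 0.336 to 16.0 ± 0.109 CPM in cortex at 2 weeks (4.21 ± 0.29, adjusted p = 2.5e-06) and from 0.118 ± 0.0141 to 11.6 ± 0.839 CPM in midbrain at 2 weeks (6.48 ± 0.36, adjusted p = 7.17e-07). It had 25 reads in cortex mock and 4 in midbrain mock, and at 4 weeks stood at 2.55 ± 0.30, adjusted p = 8.5e-05 in cortex and 6.54 ± 0.37, adjusted p = 5.25e-07 in midbrain. N-cadherin (Cdh2) fell in all 4 (cortex -1.32 ± 0.35, adjusted p = 0.0132, and -1.26 ± 0.35, adjusted p = 0.0146, midbrain -1.44 ± 0.35, adjusted p = 0.00959, and -1.32 ± 0.35, adjusted p = 0.0122), and the junction scaffold Tjp1 fell in midbrain at 4 weeks (-1.57 ± 0.38, adjusted p = 0.0074), but with the length offset Cdh2 did not pass in midbrain at 2 weeks (-1.51) nor Tjp1 at 4 weeks (-1.52). With total-read scaling the list counted 2 higher in each comparison and 2 or 3 lower.

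Of the 11 tested of 12 bicarbonate, proton and lactate genes, 2 rose and 3 fell, 3 and 5, 3 and 2, and 4 and 3, with medians of -0.23, -1.10, 0.20 and -0.72. The membrane carbonic anhydrase Car14 rose from 1.37 ± 0.539 to 21.7 ± 0.338 CPM in cortex (4.01 ± 0.28, adjusted p = 2.06e-06) and from 1.64 ± 0.403 to 72.6 ± 1.47 CPM in midbrain at 4 weeks (5.47 ± 0.28, adjusted p = 3.61e-07). The lactate transporter Slc16a1 fell in cortex (-1.61 ± 0.42, adjusted p = 0.0124, and -2.48 ± 0.46, adjusted p = 0.0015), and the lactate dehydrogenase subunit Ldhb rose in midbrain (1.55 ± 0.23, adjusted p = 0.00056, and 1.73 ± 0.23, adjusted p = 0.000227). Among the 10 tested of 11 folate and aldolase genes, with medians of 0.12, -0.31, -0.34 and -0.66, 1 rose and 3 fell, 2 and 4, 0 and 4, and 1 and 5. Aldh1l2, the mitochondrial relative of Aldh1l1, fell from 3.56 ± 0.308 to 1.22 ± 0.123 CPM in cortex at 2 weeks (-1.54 ± 0.36, adjusted p = 0.00709), fell at both midbrain times (-1.09 ± 0.32, adjusted p = 0.0233, and -3.02 ± 0.40, adjusted p = 0.000195, the 2-week fall not passing without both mock 1 libraries), and had only 3 reads in cortex at 4 weeks. Thymidylate synthase (Tyms) fell in all 4, as in cortex at 2 weeks (-2.59 ± 0.40, adjusted p = 0.000647), the folate enzyme Mthfd1 fell in all 4, as in cortex (-1.25 ± 0.21, adjusted p = 0.00105, and -1.07 ± 0.21, adjusted p = 0.00214; with the length offset it passed only in cortex at 2 weeks), and Mthfd2 fell in midbrain (-1.59 ± 0.36, adjusted p = 0.00658, and -1.63 ± 0.36, adjusted p = 0.00491). Aldoa, the muscle-type aldolase, rose in cortex at 4 weeks (0.76 ± 0.21, adjusted p = 0.014) and did not pass elsewhere, and with total-read scaling it fell there (-0.29). With total-read scaling the bicarbonate list counted 2 or 3 higher and 4 to 7 lower, and the folate list 0 higher and 4 to 8 lower.

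**Figure D5:**
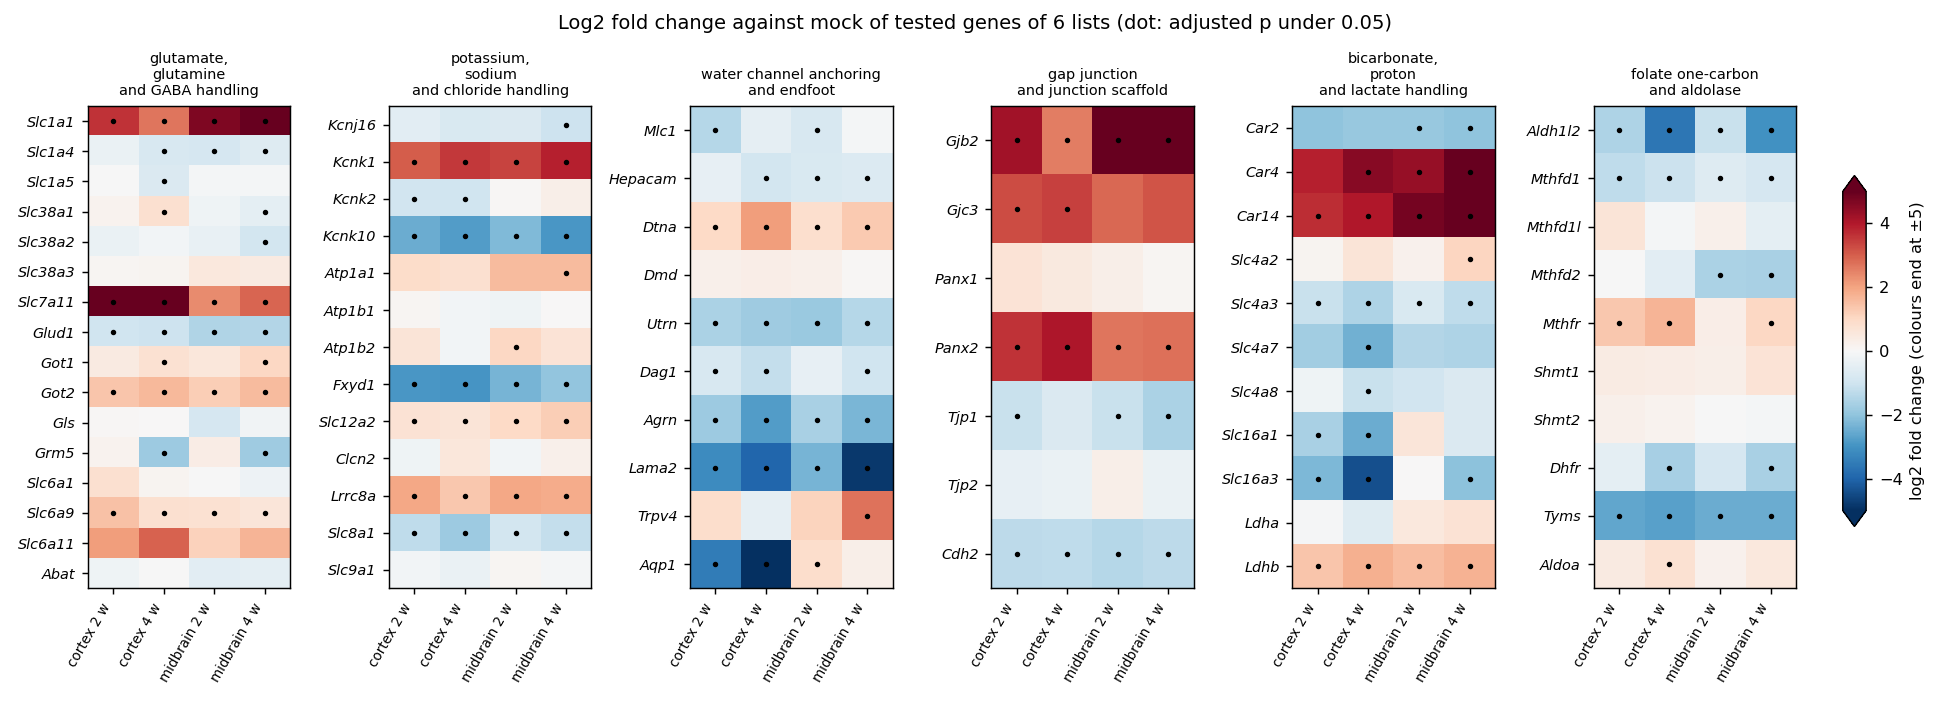
Log2 fold change against mock (colour, ending at ±5) of tested genes of the 6 lists in the 4 comparisons, with a dot where the adjusted p is under 0.05. Kcnk1 and Gjb2 are red with a dot in all 4 columns and Agrn and Tyms blue with a dot in all 4.

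Genes whose log2 CPM followed a member most closely over the 12 libraries were looked for among 5679 genes with at least 10 CPM on average, as a description with no p. The libraries share mock and shPTB groups, depth and scaling, so any gene with a like contrast also has a high r. Glul lay nearest to Cptp and Echdc2 (Pearson r = 0.994 and 0.993), Aldh1l1 to Wwox and Sox4 (0.981 and 0.978), and Gjb6 to Lman2l and 2900097C17Rik (0.980 and 0.976). Kcnj10 lay nearest to Slc25a3 and Nacc2 (0.972 and 0.970), Slc1a3 to Nav1 and Cybb (0.969 and 0.961), Aqp4 to Rab31 and Adgrl2 (0.965 and 0.946), and Slc1a2 to Zfp984 and Slc7a11 (0.960 and 0.958). The lowest values were those of Slc4a4 with AI506816 and Papola (0.948 and 0.945), Gja1 with Eno1 and Ptprs (0.940 and 0.920) and Aldoc with Speg and Dlgap4 (0.939 and 0.900). None of these partners was itself a member.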

How the data were processed

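RNA was sequenced from 12 libraries, 6 groups of 2. Per the labels' protocols, cDNA was made with a primer named Biotin-B-T, pulled down with streptavidin, and its second strand was primed at random. The submitters' processing notes name cutadapt 2.3, Salmon 0.14.1, DESeq2 and mm10, and no annotation release is named there. The authors deposited, per transcript, estimated counts (55.1% of values above 0 were not whole), TPM and effective lengths. Of 140658 transcripts, 140137 matched GENCODE M21 (216 only without the version number), and the 521 unmatched held 0.0547 to 0.129% of reads.

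Estimated counts were summed over 54356 genes and rounded. Filtering with filterByExpr (count minimum 10, total minimum 15) left 14607 genes. The edgeR 4.0.16 quasi-likelihood test (R 4.3.3, limma 3.58.1) was fitted to all 6 groups with TMM factors (mock 1.22 to 1.69, shPTB 0.680 to 0.953). It had a common dispersion of 0.0550, 6 residual degrees of freedom and 11 comparisons, each with Benjamini-Hochberg adjustment over all genes at 0.05. At these depths 3 reads are worth 0.163 to 0.576 CPM. On simulated data for cortex at 2 weeks against mock (13191 genes), 0, 6.25, 56.2 and 75.5% of genes changed 1.5-, 2-, 4- and 8-fold were recovered, and 4.29% of calls were unchanged genes. The simulation changed only a small share of genes, in 1 group, whereas 35.0% of tested genes passed in the real comparison. Its recovery rates therefore do not carry over to these data. Alternatives were no filter, DESeq2's size factors in edgeR, an offset of effective lengths, total-read scaling, only the groups compared, DESeq2 1.42.0, a replicate block, and leaving out each library.

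All 10 members are named. From each of the 6 lists, at most 2 genes per comparison with mock are named, those with the largest passing change whose higher group averaged 10 CPM or more, together with closely related genes of the members (Slc1a1, Kcnj16, Mlc1, Hepacam, Gjb2, Aldh1l2 and Aldoa). The members and lists were chosen with earlier results of these data known. For the likeness search, log2 CPM used a prior count of 2. Of the genes in these lists, 2 count in the list totals and are not reported here by name.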

Additional observations from a re-analysis of the deposited data

How the results depend on the processing

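With 2 libraries a group and 6 residual degrees of freedom, smaller changes than those called could be missed, and members near the threshold changed sides with single libraries. Of the members' values under all alternatives, 2143 stayed on their side of the threshold (among them values that passed in neither fit, some of which changed sign), 216 newly passed, 54 no longer passed and 7 reversed in a fit that passed. These 7 were Aldoc in cortex at 2 weeks (0.42 without both mock 2 libraries and 0.44 with a block on the mock libraries), Aqp4 in midbrain at 2 weeks (-0.50 with total reads), and Aldoc in midbrain at 2 weeks (0.44 without both mock 2 libraries and 0.42 with the mock block) and at 4 weeks (-0.74 with total reads and -0.33 without both mock 1 libraries). The cause was not tested.

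Leaving out 1 library at a time, the number of the 10 members called ranged from 3 to 8 in cortex at 2 weeks, 6 to 9 in cortex at 4 weeks, 2 to 4 in midbrain at 2 weeks and 4 to 8 in midbrain at 4 weeks. It ranged from 0 to 1 between 4 and 2 weeks in cortex, 0 to 3 in midbrain, 0 to 1 between regions in mock and 0 to 2 at 2 weeks, and was 0 between regions at 4 weeks and for both differences of region responses.

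In midbrain at 2 weeks, 4 members were called, against 7 with total reads, 10 without both mock 2 libraries and 10 with the mock block. Between 4 and 2 weeks in cortex 0 were called, against 2 with total reads, 6 with only the groups compared, 1 with DESeq2, and 6 under each of the 3 alternatives to the mock libraries (without both numbered 1, without both numbered 2, and the mock block). In midbrain 1 was called, against 3 with no filter, 0 with the length offset, 2 with total reads, 8 with only the groups compared, 2 with DESeq2 and 7 under each mock alternative. Between regions 0 were called: in mock 1 with no filter and 5 under each mock alternative. At 2 weeks it was 1 with no filter, total reads or DESeq2, 8 with only the groups compared and 6 under each mock alternative. At 4 weeks it was 1 with no filter, 5 with only the groups compared, 5 without either pair of mock libraries and 4 with the mock block. Differences of region responses gave 0, against 1 with DESeq2 at both times, 6, 5 and 6 under the mock alternatives at 2 weeks and 3, 4 and 4 at 4 weeks. The mock alternatives were chosen after seeing the data, and with 1 mock library left per region its spread is taken from the remaining groups. With only the groups compared, Slc1a3 and Slc4a4 did not pass in cortex at 2 weeks (adjusted p = 0.102 and 0.0616), nor Gja1 in cortex at 4 weeks (-1.004, just above the threshold), nor Aqp4 and Kcnj10 in midbrain at 4 weeks (adjusted p = 0.101 and 0.0516). Among list genes, Mthfd1 in midbrain at 2 weeks did not pass without both mock 2 libraries (-0.45), and Kcnj16, Hepacam, Mlc1 and Aldoa each passed in further comparisons without a mock pair.

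Replicate numbers do not pair the samples by the labels: deviations of same-numbered libraries correlated at 0.715 between the mock groups and at -0.0274 to 0.0306 in the other 14 of 15 pairs of groups. A replicate block gave 6, 9, 4 and 7 members called against mock, where the fit without it gave 6, 8, 4 and 7, the added call being Kcnj10 in cortex at 4 weeks (0.97).

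Over all genes, 5117, 5753, 4470 and 5721 were called against mock in cortex at 2 and 4 weeks and midbrain at 2 and 4 weeks, and 2966 to 8700, 3686 to 9201, 2424 to 8810 and 3305 to 9235 under the alternatives. The counts were 405 and 388 between times in cortex and midbrain (43 to 2704 and 25 to 3903), 320, 430 and 1167 between regions in mock, at 2 and at 4 weeks (0 to 2062, 70 to 3209 and 442 to 3681), and 100 and 372 for the differences of responses (26 to 1751 and 138 to 2277).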

Other observations

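For 3 members other than Glul, chosen after their values were seen, the deposited TPM was set beside the read counts, as values with no test. Slc1a2, whose CPM was higher in every shPTB library of both regions, stood at 3.38 and 2.09 TPM in cortex mock, 3.15 and 2.71 at 2 weeks and 1.75 and 1.73 at 4 weeks. In midbrain Slc1a2 stood at 5.29 and 3.20 TPM in mock, 2.44 and 2.14 at 2 weeks and 2.05 and 2.11 at 4 weeks. Aldoc, whose CPM overlapped between shPTB and mock groups, stood at 737 and 785 TPM in cortex mock, 259.6 and 238 at 2 weeks and 140.2 and 130.3 at 4 weeks. In midbrain Aldoc stood at 524 and 698 TPM in mock, 194 and 211 at 2 weeks and 179.8 and 184 at 4 weeks. TPM of Slc1a2 and Aldoc was thus lower at 4 weeks than in every mock library of the region, which was not so for CPM. TPM is a share of the whole library without TMM factors, so the 2 scales differ in library scaling as well as in length. Values of these members with total-read scaling are given above, and the part of each difference was not tested. Kcnj10, whose CPM was higher in every shPTB library than in the mock libraries of its region, stood at 8.10 and 10.2 TPM in cortex mock, 5.88 and 5.46 at 2 weeks and 4.39 and 4.77 at 4 weeks. In midbrain Kcnj10 stood at 4.37 and 6.35 TPM in mock, 5.41 and 5.66 at 2 weeks and 4.09 and 4.67 at 4 weeks, so that its TPM was lower than mock in cortex and overlapped with mock in midbrain. Other members differed at 2 weeks, where their CPM overlapped with mock. Gja1 stood at 2.31 and 2.20 TPM in cortex (mock 16.4 and 4.42) and 2.42 and 2.43 in midbrain (mock 14.9 and 6.97). Midbrain Aqp4 stood at 23.9 and 23.2 TPM (mock 57.5 and 55.5) and Slc4a4 at 2.91 and 2.58 (mock 19.6 and 6.82). At 4 weeks in cortex every member but Gjb6 had lower TPM than both mock libraries, and Gjb6 had higher TPM.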
